A study of Mus musculus with 15 samples.

Results

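The folic acid kidney is described here by 6 RNA libraries of the 15 in the series, 3 in each of 2 groups. The group named WTK holds kidneys of mice given vehicle (WTK replicates 1 to 3), and the group named IgGK holds kidneys of mice given folic acid and then a control IgG (IgGK replicates 1 to 3). The libraries were taken by their treatment and tissue labels, and every gene in the deposited table was carried through, 56748 in all. Of these, 31687 had a count in at least 1 of the 6 libraries and 19593 passed a filter on low counts and were tested. The mice were male C57Bl/6 animals, 10 to 12 weeks old, labelled wild type in both groups, with no transgene or deletion. Folic acid was injected once at 200 mg/kg, IgG was injected at 10 mg/kg every other day for 21 days, and the animals were killed on day 28. The labels give vehicle and no antibody for WTK, so the effects of folic acid and of repeated IgG injection cannot be told apart in this comparison. Each library was taken to stand for a separate mouse, and the 6 share a single batch label.

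Folic acid at a high dose crystallises in the tubule lumen and is directly toxic to tubule cells, and it is used in mice as a model of acute tubular injury that passes into interstitial fibrosis. The proximal tubule reabsorbs most of the filtered glucose, phosphate, amino acids and organic ions, burns fatty acids in its many mitochondria, and makes up most of the RNA of a whole kidney. After injury its surviving cells lose transporters, show injury proteins such as KIM-1 and NGAL, and stand among incoming macrophages, lymphocytes and matrix-forming fibroblasts. All values here are of whole tissue, in which fewer cells of a type and less RNA per cell cannot be told apart.

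Total counts per library ranged from 26729413 to 32321976, so that 1 count equals 0.0286 to 0.0415 normalized CPM (CPM, read counts scaled to the library total and edgeR's TMM factors), the unit used throughout. A few very abundant transcripts gave way in the injured kidney. The 10 most abundant genes took 15.2 to 15.7% of all counts in WTK and 8.94 to 9.86% in IgGK, the mitochondrially encoded genes took 9.41 to 9.62% and 5.85 to 6.27%, and *Kap* alone took 2.72 to 2.91% and 0.948 to 1.57%. Between 23700 and 24457 genes had a count in a WTK library and between 25763 and 26346 in an IgGK library. A gene was called up or down when edgeR's quasi-likelihood test gave a Benjamini-Hochberg adjusted p under 0.05 and an absolute log2 fold change over 0.5. The fit held the 9 kidney libraries of the series with 6 residual degrees of freedom. The third kidney group, LepK, holds mice given the same dose of folic acid and then a leptin antibody. Its 3 libraries enter the filter, the scaling and the estimate of spread. A fit of the 6 WTK and IgGK libraries alone gave 4276 genes up and 2970 down. Of the genes tested, 37.3% were called, 21.7% up and 15.6% down, and these shares are the background for each count below. The groups did not overlap in 62.6% of all genes tested, with IgGK above WTK in 32.5% and below in 30.1%. The median log2 fold change over all genes tested was 0.04, that of the genes called up was 1.54 and that of the genes called down was -0.88. A change of more than 2-fold was seen in 3061 genes called up and 1236 called down, and a change of more than 8-fold in 540 and 44. Scaling by library size alone, which leaves the shift in the abundant transcripts uncorrected, moved the median of all genes to 0.48 and the calls to 7803 up and 1178 down (86.9% of calls up, against 58.2% with TMM). No gene called under that scaling had the opposite call under TMM.

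**Figure D1:**
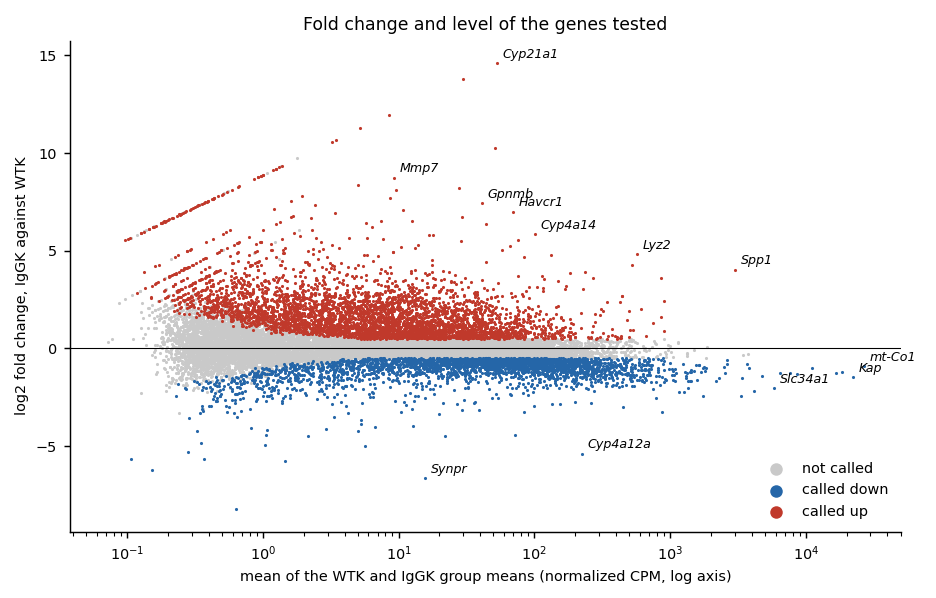
Each point is 1 of the 19593 genes tested, with the mean of the 2 group means in normalized CPM on a log axis (horizontal) and the log2 fold change of IgGK against WTK (vertical), red where called up, blue where called down and grey where not called. The points at the far right, among them *Kap* and *mt-Co1*, lie below 0, while *Cyp21a1* has the highest fold and *Synpr* and *Cyp4a12a* lie far below 0.

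Markers of the adrenal cortex divided the injured libraries and stand among the largest folds. Of 6 adrenal cortex markers 5 were tested (*Cyp21a1*, *Cyp11b1*, *Hsd3b1*, *Cyp11a1* and *Star*, enzymes and a carrier of steroid synthesis). The 6 summed to 632 normalized CPM in IgGK replicate 1, 813 in IgGK replicate 2 and 16.6 in IgGK replicate 3, against 6.08 to 6.74 in the WTK libraries. *Cyp21a1*, the steroid 21-hydroxylase, had no count in WTK and 126, 190 and 2.34 normalized CPM in IgGK. IgGK replicates 1 and 2 were thus far above the vehicle libraries. IgGK replicate 3 was far below IgGK replicates 1 and 2 but still above the vehicle libraries, as in *Hsd3b1* (2.34 against 0 to 0.166 in WTK). Among the 10 largest rises of the whole comparison were *Cyp21a1*, *Cyp11b1*, *Hsd3b1* and *Cyp11a1*, together with *Akr1cl* (0 in WTK, then 21.04, 29.09 and 0.636) and the potassium channel gene *Kcnk9* (0 in WTK, then 15.9, 15.2 and 0.347), which have the same split. Against the floor of 3 counts over the WTK group, the IgGK mean of *Cyp21a1* was at least 2730-fold higher, that of *Cyp11b1* at least 1530-fold, of *Akr1cl* at least 435-fold and of *Kcnk9* at least 269-fold. These means rest on IgGK replicates 1 and 2, and the bounds do not hold for IgGK replicate 3 alone. *Chgb*, a granule protein of neuroendocrine cells, reached 53.9 in IgGK replicate 2 and 1.71 and 1.47 in the other two. A search made after these values were seen found 26 tested genes with a mean over 1 CPM that were more than 4-fold lower in IgGK replicate 3 than in both other IgGK libraries, and 18 of them were called up. As many as 44 genes stood this far below both partners in another library, so the number is not unusual, but here the list holds *Abcb1b* (58.6, 71.9 and 9.74), *Meg3* (29.3, 43.2 and 6.76) and the ACTH receptor gene *Mc2r* (5.18, 5.89 and 0.723). The voom test of limma called none of the 5 adrenal markers, nor *Akr1cl*, *Kcnk9* or *Chgb* (adjusted p from 0.11 to 0.566). A fit without IgGK replicates 1 and 2 together, chosen after seeing the data, keeps 1 IgGK library, which is assumed to vary like the other groups. In it 3237 genes were called up and 2651 down, 1 of them opposite to its call with all libraries, the adrenal median was 4.81 against 10.28, and the log2 fold change of *Star* was 0.62. The part of adrenal RNA in other results was not tested.

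Other tissues that can adhere to a kidney were read in the same way. Of the 6 adipocyte markers, 5 were called up (median log2 fold change 2.05) and their sum was 313 to 515 normalized CPM in IgGK against 27.8 to 98.7 in WTK, with WTK replicate 2 at the low end. *Cfd*, the adipose complement protease adipsin, had 32.98, 3.001 and 18.9 in WTK and 237, 258 and 152 in IgGK. The exception was leptin itself. *Lep* had 4.28, 3.32 and 9.23 in WTK and 1.68, 1.46 and 1.62 in IgGK (log2 fold change -1.82, standard error 0.49, edgeR adjusted p = 0.00681), a call that was lost without WTK replicate 3 (log2 fold change -1.26). All 6 urothelial markers were called up (median 2.26), with sums of 23.4 to 29.9 in WTK and 83.7 to 113 in IgGK, among them the basal keratin gene *Krt5* (log2 fold change 2.54). None of the 3 tested skeletal muscle markers and none of the 5 red blood cell markers was called. Hemoglobin *Hbb-bs* had 57.6, 58.3 and 55.8 in WTK and 36.3, 72.2 and 73.4 in IgGK, a wider spread in the injured group with the vehicle values inside it. Of 5 nerve and Schwann cell markers, the sodium channel gene *Scn7a* was called up (log2 fold change 2.41).

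**Figure D2:**
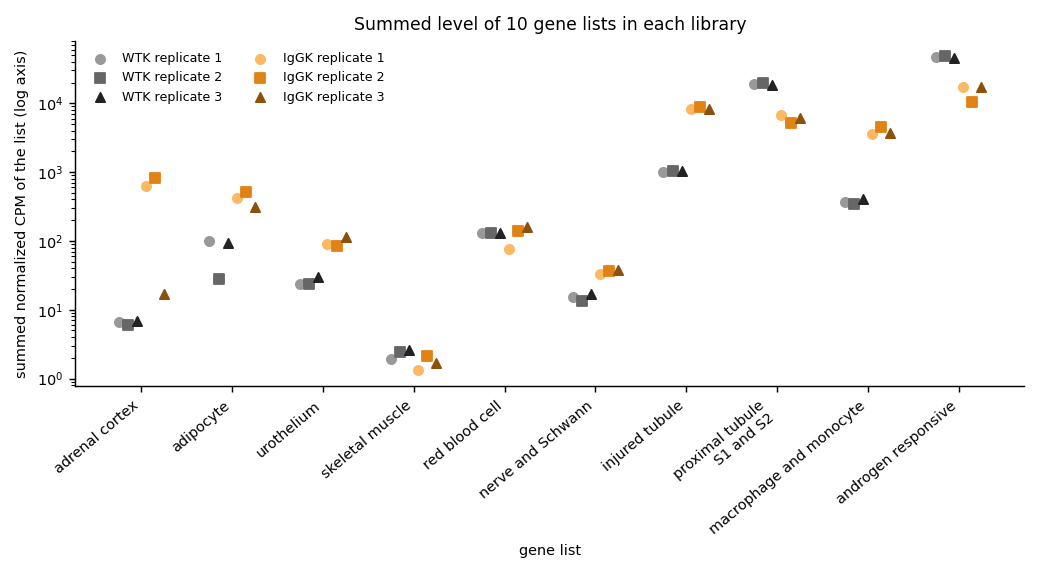
Each point is the summed normalized CPM of the members of a gene list (log axis) in 1 library, grey to black for WTK replicates 1 to 3 and light to dark orange for IgGK replicates 1 to 3. The adrenal cortex list separates IgGK replicates 1 and 2 (632 and 813) from IgGK replicate 3 (16.6), while the injured tubule, proximal tubule and macrophage lists keep the 3 IgGK libraries close together and apart from the 3 WTK libraries.

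The promoters of 6 genes are shown because results below turn on their levels. They belong to the phosphate carrier gene *Slc34a1*, the organic anion carrier gene *Slc22a6* and the androgen-regulated *Kap*, all called down, and to the complement gene *C3* and the proliferation genes *Top2a* and *Mki67*, all called up. The windows run from 250 bases before to 50 bases after the RefSeq start site (build GRCm38.p6, 300 bases, written 5′ to 3′ on the gene's own strand), and each of these genes has a single window. *Slc34a1* lies at chr13:55399398-55399697 (plus strand), *Slc22a6* at chr19:8617746-8618045 (plus), *Kap* at chr6:133853618-133853917 (minus), *C3* at chr17:57228087-57228386 (minus), *Top2a* at chr11:99024140-99024439 (minus) and *Mki67* at chr7:135716330-135716629 (minus). Capitals mark any of 5 motifs, read on both strands: CAAAGTC (a core of the HNF4 site), TGACTCA (the AP-1 site), CCAAT (bound by NF-Y), TTTGAA (the cell cycle homology region) and TATAAA (the TATA box).
Slc34a1: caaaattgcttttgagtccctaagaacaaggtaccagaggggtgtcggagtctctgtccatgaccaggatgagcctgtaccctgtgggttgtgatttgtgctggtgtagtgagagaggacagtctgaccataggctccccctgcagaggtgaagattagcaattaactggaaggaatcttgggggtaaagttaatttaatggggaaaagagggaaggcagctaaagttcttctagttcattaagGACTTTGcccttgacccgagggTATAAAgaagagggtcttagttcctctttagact
Slc22a6: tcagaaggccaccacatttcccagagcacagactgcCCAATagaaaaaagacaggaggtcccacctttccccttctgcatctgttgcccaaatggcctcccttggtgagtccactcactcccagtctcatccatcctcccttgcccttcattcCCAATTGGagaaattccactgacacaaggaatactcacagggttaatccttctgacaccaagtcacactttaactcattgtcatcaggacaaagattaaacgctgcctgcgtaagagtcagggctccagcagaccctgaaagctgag
Kap: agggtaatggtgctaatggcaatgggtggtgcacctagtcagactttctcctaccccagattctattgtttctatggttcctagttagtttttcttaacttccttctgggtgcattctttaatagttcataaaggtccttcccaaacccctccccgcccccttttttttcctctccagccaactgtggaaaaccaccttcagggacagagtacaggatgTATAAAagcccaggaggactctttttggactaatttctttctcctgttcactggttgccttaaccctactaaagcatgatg
C3: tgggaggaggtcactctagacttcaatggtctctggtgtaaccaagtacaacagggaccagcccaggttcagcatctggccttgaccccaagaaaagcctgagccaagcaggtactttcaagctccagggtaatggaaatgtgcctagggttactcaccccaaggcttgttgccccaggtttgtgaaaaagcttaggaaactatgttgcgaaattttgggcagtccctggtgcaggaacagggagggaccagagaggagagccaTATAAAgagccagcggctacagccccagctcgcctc
Top2a: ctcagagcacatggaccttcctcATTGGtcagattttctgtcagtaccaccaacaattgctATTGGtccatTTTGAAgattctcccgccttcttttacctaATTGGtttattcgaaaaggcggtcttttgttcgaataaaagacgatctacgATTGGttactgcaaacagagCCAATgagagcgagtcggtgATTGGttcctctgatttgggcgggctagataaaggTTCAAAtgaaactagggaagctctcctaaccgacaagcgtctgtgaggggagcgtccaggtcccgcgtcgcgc
Mki67: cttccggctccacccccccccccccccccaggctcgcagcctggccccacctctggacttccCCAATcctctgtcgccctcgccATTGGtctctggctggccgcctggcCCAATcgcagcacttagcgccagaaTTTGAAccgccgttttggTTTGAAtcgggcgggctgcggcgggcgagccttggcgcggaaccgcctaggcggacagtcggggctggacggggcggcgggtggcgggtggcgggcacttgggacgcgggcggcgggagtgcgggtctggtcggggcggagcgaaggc

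*Slc34a1* holds CAAAGTC on the opposite strand at position -6, counted from the start site as 0, and a TATAAA at 16. *Slc22a6* holds 3 CCAAT motifs, of which the pair at -97 and -94 overlap on opposite strands. The *Kap* window has TATAAA at -31 and none of the other 4 motifs. *Top2a* has 6 CCAAT motifs and 2 TTTGAA motifs, and *Mki67* has 3 and 2. Of the 20 cell cycle list members with a window (of 24 tested), 16 held CCAAT and 9 held TTTGAA, while CCAAT stood in 37.4% and TTTGAA in 17.9% of all 32851 windows in the table. The 16 early proximal tubule genes matched (of 19 tested) have 23 windows, of which 3 held CAAAGTC, as did 4.44% of all windows. A comparison of motif shares between all genes called up and all called down is void, since 70.0% and 71.6% of them had a window, under the 80% such a comparison needs. A match is a string of letters in this window, and a factor's binding was not measured.

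Genes of injured tubule cells rose. Of 19 tested markers 18 were called up, none was called down, and the median log2 fold change was 3.21, against 0.04 for all genes. *Havcr1* (ENSMUSG00000040405, chromosome 11, 46625907 to 46670405, GRCm39), which encodes kidney injury molecule 1, had 1.12, 1.58 and 0.577 normalized CPM in WTK and 155, 117 and 141 in IgGK. The lowest injured kidney was far above the highest vehicle kidney, and the log2 fold change was 6.99 (standard error 0.23, edgeR adjusted p = 4.77e-09). *Lcn2*, which encodes NGAL, an iron-scavenging protein shed by injured distal tubule, had 2.49, 4.62 and 2.99 in WTK and 114, 152 and 118 in IgGK (log2 fold change 5.25). *Spp1*, which encodes the secreted phosphoprotein osteopontin, had the largest rise in normalized CPM, a scale not corrected for gene length. Its 3 WTK libraries read 344, 355 and 349 and its 3 IgGK libraries 5624, 5904 and 5609, a 16.4-fold change with a narrow spread on both sides (log2 fold change 4.03, standard error 0.14, edgeR adjusted p = 4.84e-09). The keratin gene *Krt8*, expressed by uninjured simple epithelia too, was the member that was not called. It had 158 to 176 in WTK and 209 to 230 in IgGK, and its log2 fold change of 0.40 lay under the threshold, which it passed with library size alone (0.84). The summed level of the list was 989 to 1046 in WTK and 8277 to 8890 in IgGK.

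The transporters of the early proximal tubule fell together. Of 19 markers of segments S1 and S2, 18 were called down and none up (median -1.46). *Slc34a1*, the main phosphate carrier of the brush border, had 9823, 9419 and 9154 in WTK and 2516, 1891 and 2459 in IgGK (log2 fold change -2.05, standard error 0.12, edgeR adjusted p = 7.27e-08). *Slc34a3*, a second phosphate carrier, fell further, from 42.0, 35.1 and 31.7 to 3.76, 3.40 and 3.41 (log2 fold change -3.36). *Slc5a2*, which encodes the glucose carrier SGLT2, had 373, 350 and 326 in WTK and 49.5, 51.3 and 54.3 in IgGK (log2 fold change -2.76), over a locus it shares with *Rusf1* on the other strand. The injured libraries were within a few units of each other in both genes and well below each vehicle library. The sulfate carrier gene *Slc13a1* was the exception, with 244 to 291 in WTK and 272 to 309 in IgGK, overlapping values and no call (log2 fold change 0.13, adjusted p = 0.249), though it was called up with library size alone (log2 fold change 0.58).

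The late segment S3 changed less evenly. Of 14 markers, 10 were called down and 1 up (median -0.90). *Slc22a30*, an organic anion carrier gene, fell the most, from 366 to 402 in WTK to 113, 58.8 and 110 in IgGK (log2 fold change -2.04). *Slc7a13*, an amino acid carrier gene that males express more, had 1014, 884 and 899 in WTK and 370, 180 and 369 in IgGK. In both genes IgGK replicate 2 was the lowest library. *Slc7a12*, a related carrier gene that females express more, went the other way, from 0.498, 1.66 and 2.74 to 10.4, 9.83 and 9.60 (log2 fold change 2.58, edgeR adjusted p = 6.58e-05). With library size alone 6 of the 14 were called down and 2 up.

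Endocytosis and the brush border followed the early segment, with 16 of 19 members called down and none up (median -0.96, and 10 down with library size alone). *Lrp2*, which encodes the endocytic receptor megalin, had 1942, 2018 and 1890 in WTK and 778, 563 and 683 in IgGK (log2 fold change -1.53), and its partner cubilin, *Cubn*, had 312 to 357 and 147 to 173 (log2 fold change -1.04). *Cltrn*, a partner of brush border amino acid carriers, fell the most (log2 fold change -1.71). The brush border peptidase gene *Mme* was not called, with 124, 140 and 132 in WTK and 131, 125 and 131 in IgGK. Of 20 organic ion and drug transporters, 14 were called down and 4 up (median -1.18). *Slc22a6*, the carrier that takes up organic anions from the blood, had 1524 to 1612 in WTK and 435 to 598 in IgGK. *Slco1a1* fell the most, from 937, 768 and 684 to 128, 23.5 and 145 (log2 fold change -3.01). The 4 that rose were the efflux pump genes *Abcc1*, *Abcc3*, *Abcc4* and *Abcb1b*, with log2 fold changes of 0.67, 2.74, 1.57 and 2.67, the last of them in the 2 libraries with adrenal transcripts above all.

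Further down the nephron smaller shares of the members were called than in the early proximal tubule. In the loop of Henle and thick ascending limb 3 of 15 members were called up and 4 down (median -0.18), in the distal convoluted and connecting tubule 0 and 6 of 12 (median -0.37), in collecting duct principal cells 2 and 3 of 13 (median -0.17), and in intercalated cells 1 and 8 of 15 (median -0.51). Scaling by library size alone turned the first 3 of these medians positive and left 1, 5, 1 and 2 members called down. The intercalated cell median stayed negative (-0.07). Measured from the median of all genes, the list medians hardly moved between the scalings. They were -0.41 in the distal list and -0.55 in the intercalated list under both. The sign of the first 3 medians thus rests on the scaling, while their place below the median of all genes does not. *Umod*, which encodes uromodulin of the thick limb, had 1110, 1076 and 1073 in WTK and 1019, 833 and 1015 in IgGK and was not called (log2 fold change -0.18, edgeR adjusted p = 0.0858). *Egf*, the epidermal growth factor made in the same segment, did fall, from 839, 879 and 856 to 250, 181 and 258 (log2 fold change -1.90, standard error 0.13, edgeR adjusted p = 1.67e-07). All 3 injured libraries lay far below the vehicle libraries in *Egf*. *Slc12a3*, the thiazide-sensitive salt carrier gene of the distal convoluted tubule, had 1381 to 1557 in WTK and 635 to 780 in IgGK (log2 fold change -1.03), and *Pvalb* fell further there (log2 fold change -2.54). *Aqp2*, the water channel gene of the collecting duct, had 555, 395 and 512 in WTK and 505, 428 and 541 in IgGK, with full overlap. The chloride and bicarbonate exchanger genes *Slc26a4* and *Slc4a1* of intercalated cells fell by 1.14 and 0.67 on the log2 scale, the second a call lost with library size alone.

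**Figure D3:**
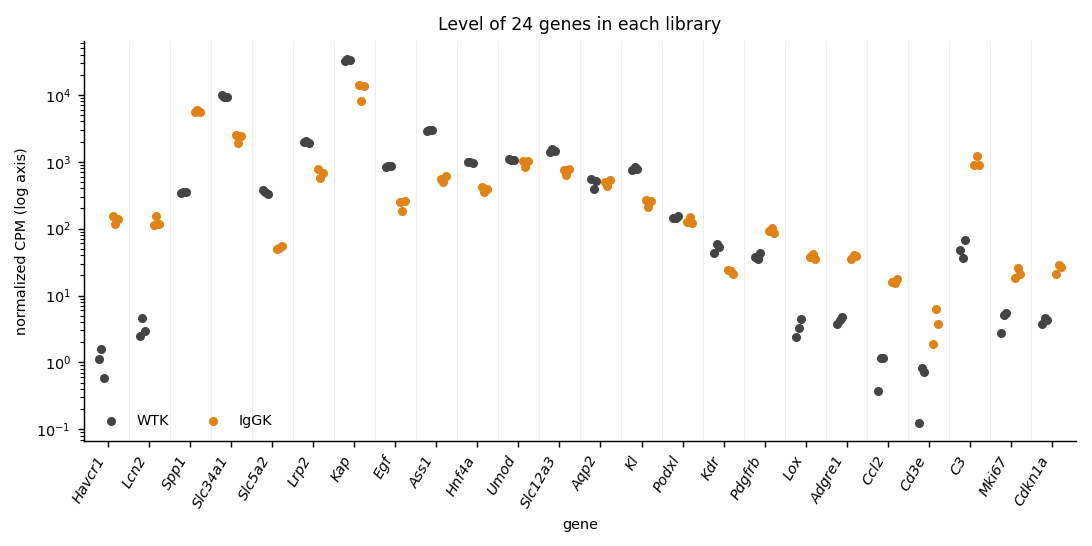
Each point is the normalized CPM of a gene (log axis) in 1 library, dark for the 3 WTK and orange for the 3 IgGK libraries, for 24 genes of the lists. *Havcr1*, *Lcn2* and *Spp1* lie wholly above their WTK values and *Slc34a1*, *Slc5a2*, *Kap* and *Egf* wholly below, while *Aqp2* and *Podxl* overlap between the groups.

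Transcription factors of the tubule moved in both directions. Of 25 tubule transcription factor genes 11 were called down and 6 up (median -0.16, which library size alone turned to 0.28, with 5 down and 9 up). *Hnf4a*, which drives proximal tubule maturation, had 993, 979 and 962 in WTK and 419, 353 and 390 in IgGK (log2 fold change -1.34, standard error 0.10, edgeR adjusted p = 3.97e-07). *Klf15* fell the most (log2 fold change -1.58). *Foxj1*, the master factor of motile cilia, rose the most in the list, from 0, 0.237 and 0.252 to 8.38, 9.06 and 8.18 (log2 fold change 5.64, edgeR adjusted p = 2.18e-06). *Pax8*, present along the whole nephron, had 75.9 to 85.8 in WTK and 79.0 to 84.1 in IgGK. Among 8 tested genes of the motile and primary cilium, *Foxj1* and 3 others were called up, *Ccdc39* by 0.66 on the log2 scale (it overlaps *Ttc14*, which has more reads), and *Dnah9*, a dynein arm gene, was called down from 2.08, 1.50 and 1.05 to 0, 0.229 and 0.0289.

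Energy metabolism fell across several pathways. All 13 mitochondrially encoded genes were called down (median -1.29), 12 of them also with library size alone. *mt-Co1*, a subunit of cytochrome c oxidase, had 34251, 35607 and 34616 in WTK and 19873, 17774 and 18221 in IgGK (log2 fold change -0.90), and its call was the one lost. *mt-Cytb* of complex III had 22989 to 23839 and 9313 to 10148 (log2 fold change -1.27). The nuclear genes of the same complexes showed 30 of 32 called down and none up (median -0.80), and library size alone left 6 called down. *Atp5b*, the catalytic subunit of ATP synthase, had 3527, 3656 and 3511 in WTK and 1609, 1387 and 1563 in IgGK (log2 fold change -1.23). The tricarboxylic acid cycle and ketone use list had 19 of 21 called down (median -1.04). *Oxct1*, which starts the use of ketone bodies, had 1325 to 1422 in WTK and 414 to 509 in IgGK, and *Pcx*, pyruvate carboxylase, fell by 1.60 on the log2 scale. The citrate synthase gene *Cs* lay just short of the fold threshold and was not called (log2 fold change -0.48, adjusted p = 8.06e-05 from edgeR), but was called down without WTK replicate 3 or IgGK replicate 1 (log2 fold change -0.51 in both), and the malic enzyme gene *Me2* was the one member called up, from between 5.69 and 6.69 to between 10.001 and 10.42 (log2 fold change 0.74).

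Fatty acid oxidation was split. Of 31 genes 20 were called down and 4 up (median -0.68, and 11 down and 6 up with library size alone). *Ppara*, the receptor that drives this programme, had 51.4, 58.4 and 54.2 in WTK and 18.3, 19.9 and 18.2 in IgGK (log2 fold change -1.54). *Acsm2*, which activates medium-chain acids, had 6998, 6941 and 6493 in WTK and 1810, 991 and 1796 in IgGK (log2 fold change -2.15). Among the 4 that rose were *Cyp4a14*, *Cyp4a10* and *Acot1*. *Cyp4a14*, a fatty acid hydroxylase gene, had 2.16, 4.26 and 3.82 in WTK and 162, 364 and 70.8 in IgGK, so each injured kidney was far above the vehicle kidneys, with a wide spread among them (log2 fold change 5.86, standard error 0.65, edgeR adjusted p = 8.32e-06). *Scd1*, the fatty acid desaturase gene, was among the 10 largest rises in normalized CPM, but its values of 525, 244 and 517 in WTK and 1049, 1971 and 856 in IgGK were wide in both groups.

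Amino acid breakdown and glucose production were lower as well. Of 29 amino acid catabolism genes 25 were called down and none up (median -1.34, and 20 down with library size alone). *Ass1*, which commits citrulline to arginine synthesis, went from 2846, 3031 and 2993 to 545, 505 and 615 (log2 fold change -2.41). *Tat* had no count in WTK and in IgGK replicate 1, had 1.34 and 0.607 in the other IgGK libraries, and was not called (edgeR adjusted p = 0.0979), though it was called up with no filter on low counts (edgeR adjusted p = 1.13e-08) and with the replicate block (edgeR adjusted p = 0.0035). In gluconeogenesis 7 of 9 genes were called down and 1 up (median -1.39). *G6pc*, the last step of glucose release, fell by 1.90 on the log2 scale, *Pck1*, its rate-setting enzyme, had 3240 to 3548 in WTK and 1707 to 2039 in IgGK (log2 fold change -0.82, or -0.38 and not called with library size alone), and the mitochondrial form *Pck2* rose from between 24.6 and 26.3 to between 40.9 and 45.4 (log2 fold change 0.75). Glycolysis had 5 of 18 called up and 5 down, or 6 and 0 with library size alone. The injury-associated hexokinase gene *Hk2* rose from 3.45, 1.34 and 3.50 to 14.3, 18.4 and 18.0 (log2 fold change 2.61), the constitutive *Hk1* had 111 to 117 and 114 to 115, and *Pgk1* fell by 0.89 on the log2 scale, a call lost with library size alone.

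Folic acid is itself handled by a pathway of folate genes in this tissue. Of 23 folate and one carbon genes 12 were called down and 3 up (median -0.63, and 7 down and 4 up with library size alone). *Folr1*, the receptor that takes folate up from the filtrate, had 444, 436 and 423 in WTK and 211, 179 and 216 in IgGK (log2 fold change -1.10, standard error 0.09, edgeR adjusted p = 7.01e-07). *Aldh1l1*, a cytosolic enzyme of folate oxidation, had 669 to 718 and 272 to 314 (log2 fold change -1.23). The 3 that rose were *Aldh1l2*, *Mthfd2* and *Mthfd1l*, all mitochondrial, with log2 fold changes of 1.27, 1.17 and 0.63. *Aldh1l2* is a weak case, since *Nopchap1* overlaps it on the other strand with many times its reads. Cholesterol synthesis and uptake had 7 of 17 called down and 1 up (median -0.25), against 2 and 4 with library size alone, which turned the median to 0.19. *Idi1* fell the most (log2 fold change -1.14), and *Sqle* was not called (log2 fold change -0.25).

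Androgen-responsive genes of the male proximal tubule fell. Of 11 genes 9 were called down and none up (median -1.66, and 8 down with library size alone). *Kap*, the kidney androgen-regulated protein gene (ENSMUSG00000032758, chromosome 6, 133826814 to 133830725, GRCm39), had the largest fall of the comparison in normalized CPM. It read 31997, 34454 and 32899 in WTK and 13808, 8074 and 13607 in IgGK (log2 fold change -1.49, standard error 0.18, edgeR adjusted p = 2.11e-05). *Cyp4a12a*, a male-specific fatty acid hydroxylase gene, had 553, 368 and 388 in WTK and 11.2, 5.77 and 14.6 in IgGK, a 41.5-fold fall (log2 fold change -5.38, edgeR adjusted p = 4.40e-07). In both genes, and in *Slco1a1* and *Slc7a13* above, IgGK replicate 2 was the lowest. The summed level of the list was 17508, 10310 and 17283 in the 3 IgGK libraries against 45762 to 47980 in WTK. *Hsd17b1* was not called, with 0.208 to 1.08 in WTK and 0.561 to 0.896 in IgGK.

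Genes of the kidney's hormone systems changed in both directions. Of 15 genes of vitamin D, klotho and phosphate 7 were called down and 2 up (median -0.48). *Kl*, which encodes klotho, the co-receptor for the phosphate hormone FGF23, had 752, 844 and 776 in WTK and 269, 214 and 262 in IgGK (log2 fold change -1.67, standard error 0.12, edgeR adjusted p = 2.21e-07). *Cyp24a1*, which inactivates vitamin D, had 114 to 149 and 64.1 to 66.5 (log2 fold change -0.95), while *Cyp27b1*, which activates it, had 9.60, 2.80 and 8.01 in WTK and 12.9, 15.4 and 13.1 in IgGK (log2 fold change 1.02, edgeR adjusted p = 0.0219). The calcium channel gene *Trpv6* was called up (log2 fold change 2.44). Of the 10 tested genes of the renin, angiotensin, endothelin and erythropoietin group 5 were called down and 2 up (median -0.63, which became 0.13 without a filter on low counts). *Ren1*, renin, had 61.1, 72.5 and 66.6 in WTK and 20.0, 20.9 and 22.0 in IgGK (log2 fold change -1.67), and *Ace* fell by 1.57 on the log2 scale. *Edn1*, the vasoconstrictor endothelin 1, rose from 1.54, 2.84 and 1.62 to 10.2, 13.3 and 13.6 (log2 fold change 2.63), and its receptor gene *Ednra* by 1.80.

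The glomerulus and the vessels gave a mixed picture. Of 14 podocyte genes 9 were called up and none down (median 0.92). *Podxl*, the podocyte surface sialomucin, was not called, with 142 to 153 in WTK and 120 to 149 in IgGK. *Kirrel*, which encodes a slit diaphragm protein, rose the most, from 10.8, 11.2 and 11.6 to 43.9, 44.2 and 41.7 (log2 fold change 1.95). Of 5 parietal epithelium genes 3 were called up, *Ncam1* the most (log2 fold change 3.15). Of 18 endothelial genes 4 were called up and 5 down (median -0.20), and library size alone gave 7 and 1 with a median of 0.24. *Kdr*, the VEGF receptor gene, had 43.3, 59.6 and 52.5 in WTK and 23.7, 23.2 and 20.7 in IgGK (log2 fold change -1.20, edgeR adjusted p = 5.81e-06), and its ligand gene *Vegfa* fell by 1.03 on the log2 scale. The 4 that rose were *Plat*, *Vwf*, *Ramp2* and *Cldn5*, with log2 fold changes of 1.36, 1.33, 0.87 and 0.58. Among 6 lymphatic markers 2 were called up and 1 down. The latter, *Reln*, was lost with library size alone and without WTK replicate 1, WTK replicate 3 or any 1 of the IgGK libraries (log2 fold changes -0.63 to -0.48 without a library). *Pdpn* rose from between 4.11 and 6.46 to between 43.2 and 44.6 (log2 fold change 2.98), a gene that fibroblasts and podocytes express too.

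Stromal cells and matrix rose. Of 16 fibroblast and pericyte genes 13 were called up and none down (median 1.57). The 13 include *Meg3*, which was low in IgGK replicate 3 like the adrenal transcripts above. Without IgGK replicates 1 and 2 together the list median was 1.25. *Pdgfrb*, the receptor gene of pericytes and fibroblasts, had 37.1, 35.1 and 42.5 in WTK and 92.7, 100 and 86.5 in IgGK (log2 fold change 1.29), and the matrix Gla protein gene *Mgp* had 33.5 to 45.2 and 476 to 550 (log2 fold change 3.61). The pericyte gene *Rgs5* was not called and overlapped between the groups (54.5 to 65.6 and 57.4 to 71.6), except that library size alone called it up. Of 16 myofibroblast and contractile genes 10 were called up and 2 down (median 1.08). *Acta2*, smooth muscle actin, rose from 38.3, 40.1 and 42.2 to 71.8, 72.6 and 64.8, no overlap but a modest log2 fold change of 0.79 beside the 3.46 of *Fn1*. The smooth muscle myosin gene *Myh11* was called down (log2 fold change -0.55), and *Lrrc15*, at 0.318 to 1.79 in all 6 libraries, was called down, a call lost with library size alone and without WTK replicate 1, WTK replicate 3, IgGK replicate 1 or IgGK replicate 3. Of 21 fibrillar and basement membrane collagen genes 16 were called up and 2 down (median 1.69). *Col3a1* rose the most (log2 fold change 3.91) and *Col18a1* had 137 to 146 in WTK and 452 to 490 in IgGK, over a locus it shares with *Slc19a1* on the other strand. The 2 that were called down encode chains of the mature glomerular and tubular basement membrane. *Col4a3* had 202, 246 and 210 in WTK and 163, 131 and 145 in IgGK (log2 fold change -0.59), and *Col4a4* had 297, 314 and 271 and then 199, 193 and 205 (log2 fold change -0.56). Both calls were lost with library size alone, where the log2 fold changes were -0.15 and -0.12, and that of *Col4a3* also without WTK replicate 2 (log2 fold change -0.49). Among 16 matrix crosslinking genes 10 were called up and 1 down, and the latter, *Adamts14*, was lost with library size alone and without WTK replicate 3, IgGK replicate 1 or IgGK replicate 2 (log2 fold changes -0.45, -0.60 and -0.58). *Lox*, lysyl oxidase, rose from 2.41, 3.28 and 4.44 to 38.1, 41.3 and 34.9 (log2 fold change 3.48, edgeR adjusted p = 1.90e-07).

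Growth factor genes changed in both directions, with more called up. Of 21 TGF-β genes 10 were called up and 1 down (median 0.44). *Tgfb1* had 18.3, 15.6 and 14.6 in WTK and 39.8, 55.5 and 40.4 in IgGK (log2 fold change 1.49), and *Ltbp2*, a matrix protein related to the latent TGF-β binding proteins, had 2.08, 0.237 and 1.44 and then 47.8, 71.1 and 51.8 (log2 fold change 5.51). The one called down was *Bmp7*, a tubule-made antagonist of TGF-β signals, from 65.0, 64.8 and 67.4 to 34.8, 27.2 and 31.9 (log2 fold change -1.07). Of 23 genes of the EGF, PDGF and Wnt families 13 were called up and 5 down (median 0.67). *Wnt4* rose the most (log2 fold change 3.47, 3.04 to 4.94 against 39.0 to 52.6), *Hbegf* overlapped between the groups, and *Egf*, *Vegfa*, *Fgf1*, *Erbb3* and *Egfr* were the 5 called down. Of 16 leptin and STAT3 target genes 11 were called up and 1, *Lep*, down (median 1.01). *Socs3*, the feedback inhibitor of this pathway, had 2.70, 3.44 and 2.70 in WTK and 29.9, 30.3 and 28.8 in IgGK, with a narrow spread on both sides (log2 fold change 3.33, standard error 0.12, edgeR adjusted p = 7.61e-09). The leptin receptor gene *Lepr* had 7.64, 8.06 and 9.20 and then 9.86, 14.3 and 13.4 (log2 fold change 0.59, edgeR adjusted p = 0.00624), a call lost without IgGK replicate 2 (log2 fold change 0.49). The shared receptor gene *Il6st* was not called (log2 fold change -0.14).

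**Figure D4:**
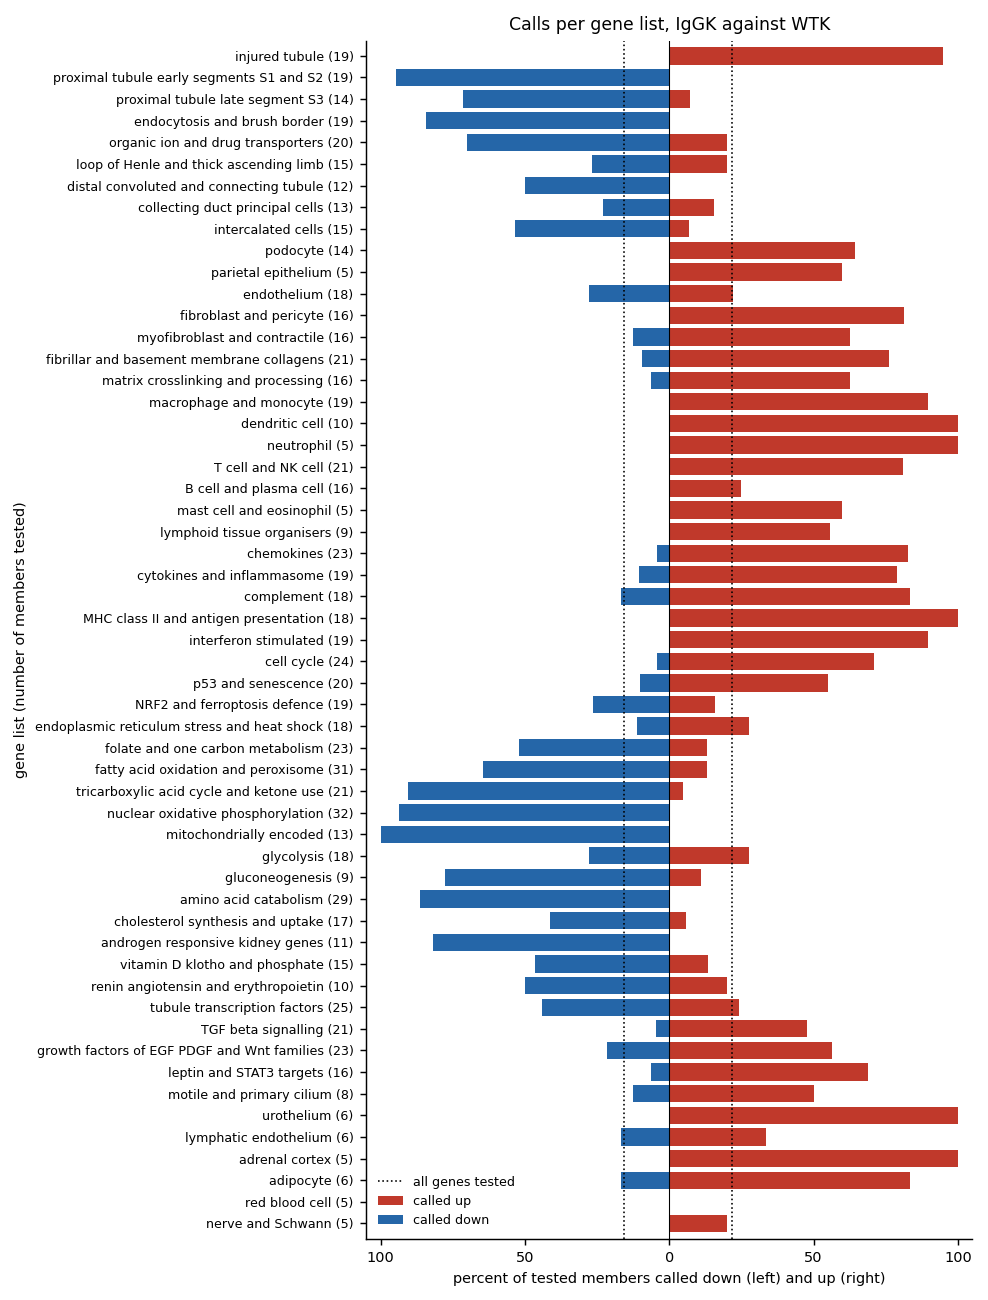
Each bar gives the percent of the tested members of a gene list called down (blue, to the left) or up (red, to the right) in IgGK against WTK, with the number of members tested in brackets, for lists with at least 4 tested members. The dotted lines mark the shares among all genes tested, 15.6% down and 21.7% up, and the immune, matrix and injury lists extend to the right while the proximal tubule and mitochondrial lists extend to the left.

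Genes of most immune cell types were higher in the injured kidney. Of 19 macrophage and monocyte genes 17 were called up and none down (median 3.15). *Adgre1*, the F4/80 antigen, had 3.78, 4.30 and 4.76 in WTK and 35.48, 39.98 and 39.17 in IgGK (log2 fold change 3.15). *Lyz2*, lysozyme, had 33.7 to 46.3 and 1014 to 1285, and *Apoe*, the lipid carrier of foamy macrophages and other cells, 115 to 144 and 1461 to 1827. *Gpnmb*, a marker of lipid-laden macrophages, rose the most, from 0.332, 0 and 1.01 to 68.1, 101 and 75.2 (log2 fold change 7.44, standard error 0.47, edgeR adjusted p = 1.20e-07). The scavenger receptor *Cd163* was not called (0.948 to 2.62 and 2.29 to 3.69) other than with library size alone. All 10 dendritic cell genes were called up (median 2.19), among them *Itgax*, CD11c, from 4.86, 8.65 and 5.88 to 46.9, 74.0 and 53.3. Of the 12 neutrophil genes 5 passed the filter and were called up, but at low levels on day 28. A gene near 0 in WTK passes the filter only through folic acid libraries, so for such genes the call up is not independent of the filter. *S100a8*, the calgranulin, had 0.0721 to 0.474 in WTK and 1.59 to 3.32 in IgGK, and *Csf3r* 0.987 to 1.62 and 12.8 to 17.2. The members that did not pass include granule genes.

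Most T cell genes were called up, while the share of B cell genes called up was near that of all genes tested (21.7%). Of 21 T cell and NK cell genes 17 were called up and none down (median 1.91). *Cd3e* of the T cell receptor complex had 0.125, 0.829 and 0.721 in WTK and 1.91, 6.32 and 3.73 in IgGK (log2 fold change 2.81, standard error 0.53, edgeR adjusted p = 6.05e-04), and *Foxp3* of regulatory T cells 0 to 0.457 and 2.04 to 2.37 (log2 fold change 3.55), over a locus shared with *Ppp1r3f* and other transcripts. *Ncr1*, the NK cell receptor gene, was not called, with 0.0790 to 0.505 in WTK and 0 to 0.434 in IgGK. Of 16 B cell and plasma cell genes 4 were called up and none down (median 0.17). *Cd79a*, the B cell receptor chain, had 3.36, 4.58 and 5.55 in WTK and 2.57, 5.49 and 3.93 in IgGK, and *Igkc*, the kappa constant region, 830, 1148 and 1160 and then 748, 1641 and 1401, both with overlap. *Igkc* was called up without IgGK replicate 1 (log2 fold change 0.54) and with library size alone (log2 fold change 0.72). Of the 4 that rose, *Sdc1*, also an epithelial gene, rose the most (log2 fold change 1.50). In the mast cell and eosinophil list 5 of 10 genes passed the filter and 3 of these were called up, with the same limit for genes near 0 in WTK. *Siglecf*, an eosinophil receptor gene, had no count in WTK and 0.132, 1.23 and 1.01 in IgGK. Of 9 lymphoid tissue organisers 5 were called up, the survival factor *Tnfsf13b* (BAFF) from between 2.53 and 2.76 to between 15.2 and 20.9, while the follicle chemokine gene *Cxcl13* was not called (0.325 to 0.553 and 0.495 to 1.24) unless IgGK replicate 1 was left out (log2 fold change 1.26) or library size alone was used.

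Chemokine and cytokine genes were mostly higher. Of 23 chemokine genes 19 were called up and 1 down (median 3.13). *Ccl2*, which draws monocytes, had 0.374, 1.15 and 1.15 in WTK and 16.1, 15.3 and 17.7 in IgGK (log2 fold change 4.18), and *Cxcl5*, which draws neutrophils, rose from between 0 and 0.249 to between 18.6 and 25.1 (log2 fold change 7.07). The one called down was the epithelial chemokine gene *Ccl28*, from 139, 187 and 129 to 21.1, 8.83 and 17.3 (log2 fold change -3.27). *Cxcl12*, made by stroma, had 172 to 210 and 176 to 205, with no difference beyond the spread. Of 19 cytokine and inflammasome genes 15 were called up and 2, *Il15* and *Il18*, down (median 2.13). The call of *Il15* was lost with library size alone (log2 fold change -0.425 against -0.86). *Il1b* had 0.721 to 1.70 and 5.84 to 7.74, while its natural antagonist *Il1rn* rose by 6.21 on the log2 scale, from between 0.0395 and 0.325 to between 11.6 and 13.7. *Il34*, a tubule-made ligand of the macrophage CSF1 receptor, rose from between 36.4 and 43.2 to between 71.2 and 73.5 (log2 fold change 0.90). *Il18* is uncertain, because *Bco2* overlaps it on the other strand with more reads than its own.

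All 18 complement genes were called, 15 up and 3 down (median 2.13). The 15 include *Cfd*, read above as an adipocyte marker. They also include *Hc*, near 0 in WTK, whose call has the filter limit given above. *C3*, the central component, had 47.6, 35.8 and 68.7 in WTK and 887, 1205 and 888 in IgGK (log2 fold change 4.29, standard error 0.30, edgeR adjusted p = 2.03e-07), and *Hc*, component C5, rose the most in fold at a low level (0 to 0.0790 and 1.85 to 2.14). The 3 that fell were *C4a*, *Cfb* and the protective membrane regulator *Cd55*, by 2.28, 1.53 and 0.96 on the log2 scale. *C4a* is nearly identical to *C4b*, so reads may be split between them. All 18 genes of MHC class II and antigen presentation were called up (median 1.71). The class II chaperone *Cd74* had 250.7, 302.7 and 296.2 in WTK and 1341, 1762 and 1452 in IgGK (log2 fold change 2.42), and the class I gene *H2-K1* 423 to 452 and 945 to 1222 (log2 fold change 1.28). Of 19 interferon-stimulated genes 17 were called up and none down (median 1.43). *Isg15* had 3.95, 3.24 and 3.79 and then 8.28, 11.1 and 8.99 (log2 fold change 1.37), *Mx1* rose the most (log2 fold change 2.01), and *Rsad2* was not called (24.8 to 27.6 and 26.1 to 29.2). IgGK replicate 2 was the highest library for the summed macrophage, dendritic cell, T cell, MHC and interferon lists, and the lowest for the summed early and late proximal tubule lists.

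Most proliferation genes were higher on day 28. Of 24 cell cycle genes 17 were called up and 1 down (median 1.03). *Mki67*, the Ki-67 antigen, had 2.74, 5.09 and 5.55 in WTK and 18.0, 25.8 and 20.7 in IgGK (log2 fold change 2.26, standard error 0.26, edgeR adjusted p = 1.07e-05), and *Top2a*, whose promoter holds the 6 CCAAT motifs shown above, had 2.66, 5.09 and 3.75 and then 13.0, 18.3 and 12.6 (log2 fold change 1.93). *Ccnd1*, cyclin D1, was the one called down, from 155, 207 and 192 to 46.8, 48.7 and 47.2 (log2 fold change -1.95). Of 20 p53 and senescence genes 11 were called up and 2 down (median 0.55). *Cdkn1a*, the p21 cell cycle inhibitor, had 3.70, 4.62 and 4.33 in WTK and 21.2, 29.0 and 26.6 in IgGK (log2 fold change 2.60), and *Cdkn2a* rose from 0 to 0.166 to 1.06, 1.49 and 0.173, with IgGK replicate 3 close to the highest WTK library. The 2 called down were *Glb1*, lysosomal beta-galactosidase, and *Sesn2*, by 1.08 and 0.56 on the log2 scale.

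Of 19 NRF2 and ferroptosis defence genes 3 were called up and 5 down (median -0.08), and library size alone gave 7 and 1 with a median of 0.37. *Slc7a11*, the cystine importer gene, rose from 0.208, 0 and 0.0361 to 2.24, 3.26 and 2.66 (log2 fold change 5.04), and *Acsl4* and *Gch1* were the others called up. The NRF2 target *Nqo1* had 47.3 to 56.6 and 46.7 to 55.1, and *Hmox1* 21.8, 26.5 and 23.9 and then 33.8, 36.5 and 25.9, not called at a log2 fold change of 0.41 but called up without IgGK replicate 3 (log2 fold change 0.55) and with library size alone (log2 fold change 0.86). *Fth1*, the ferritin heavy chain, had 4643 to 4751 and 2513 to 2794 (log2 fold change -0.82, or -0.38 and not called with library size alone), and *Tfrc*, the transferrin receptor, fell by 1.12 on the log2 scale. Of 18 endoplasmic reticulum stress and heat shock genes 5 were called up and 2 down (median -0.07, or 0.37 with library size alone). *Atf3* rose from 1.87, 2.17 and 0.721 to 16.2, 17.1 and 18.2 (log2 fold change 3.44), the chaperone *Hspa5* was not called (399 to 424 and 284 to 322), and *Herpud1* and *Hsph1* fell by 1.13 and 0.54.

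By size alone, the leading genes stood partly outside these lists. Of the 10 largest rises among the protein-coding genes whose groups did not overlap and whose mean over the 6 libraries reached 5 CPM, 6 are the genes that split with the adrenal transcripts and *Chgb* was high in IgGK replicate 2. The other 3 were *Mmp7*, a matrix protease of injured epithelium (0, 0.0790 and 0.0361 in WTK and 14.97, 21.98 and 18.59 in IgGK), the adhesion receptor gene *Adgra1* (0 to 0.216 and 14.5 to 19.5) and *Gpnmb*. The largest fall was in *Synpr*, a synaptic vesicle protein gene. It had 42.0, 26.9 and 24.6 in WTK and 0.198, 0.572 and 0.145 in IgGK, a 99.5-fold change (log2 fold change -6.64, edgeR adjusted p = 4.03e-08). The others were *Cyp4a12a*, *Cntnap5a*, *Cyp2d12*, *Neurog2*, *Hrg*, *Pde6a*, *Nat8f7*, *Ct55* and *Slc34a3*, with falls of 31.7-fold for *Cntnap5a* and 10.3-fold for *Slc34a3*. Of all genes tested, 46 had a mean under 0.5 CPM in WTK and over 5 in IgGK, and 3 had the reverse. In normalized CPM the 10 largest rises were *Spp1*, *Apoe*, *Cd74*, *Lyz2*, *C3*, *Scd1*, *Tmsb4x*, *H2-Aa*, *H2-Eb1* and *H2-K1*, and the 10 largest falls were *Kap*, *Gpx3*, *Slc34a1*, *Acsm2* and 6 mitochondrially encoded genes. *Gpx3*, the secreted glutathione peroxidase of the proximal tubule, had 24829, 26991 and 25786 in WTK and 11193, 11500 and 10876 in IgGK (log2 fold change -1.21).

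**Figure D5:**
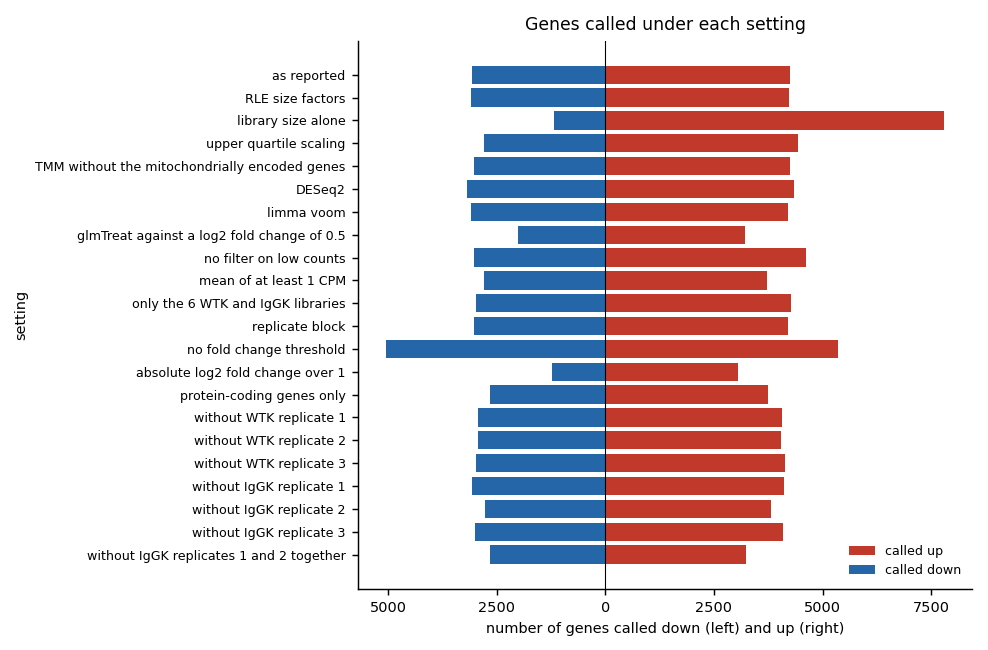
Each bar gives the number of genes called down (blue, to the left) and up (red, to the right) under 1 setting, from the fit as reported (4253 up and 3057 down) through other scalings, tests, filters and fits without single libraries. Scaling by library size alone stands apart with 7803 up and 1178 down.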

How the data were processed

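Kidney RNA was extracted with an RNeasy kit and sequenced as poly(A)-selected, non-directional libraries. The authors deposited whole-number counts per gene beside FPKM values, with GRCm39 coordinates. The submitters' processing notes name GRCm39, mm39, DESeq2 and DESeq, and the aligner and counter are not given in the sources used here. The deposited FPKM, per the file headers, are scaled for gene length and depth and enter no test. Columns of the authors' fold changes, p-values and group means were not used.

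Counts were filtered (filterByExpr, minimum count 10, minimum total count 15) and scaled by TMM. The quasi-likelihood test of edgeR 4.0.16 (R 4.3.3) was fitted over the 9 kidney libraries, WTK, IgGK and the leptin antibody group LepK. There were 3 libraries per group and 6 residual degrees of freedom. Calls needed a Benjamini-Hochberg adjusted p under 0.05 and an absolute log2 fold change over 0.5. Each standard error given is the absolute log2 fold change divided by the square root of the test's F statistic, not a direct estimate from edgeR. DESeq2 1.42.0, limma 3.58.1 (voom), other scalings, filters and thresholds, a replicate block and fits without single libraries were alternatives. The scripts were tested on simulated data. There edgeR recovered 53.2% of planted changes of 1 on the log2 scale and 76.2% of changes of 2, with 8 false calls. A gene not called is therefore not shown to be unchanged. An exact permutation test of 3 against 3 libraries cannot go below p = 0.1.

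The members and the 56 gene lists were chosen with earlier results of these data known. Genes named are the 10 largest folds and 10 largest CPM differences in each direction among called, non-overlapping protein-coding genes with a mean of at least 5 CPM, key list members, each list's most abundant member and its largest rise and fall, and members that moved against their list where these were 5 or fewer. Others are said to be chosen after their values were seen, or are named as overlapping loci. Promoter windows came from RefSeq (GRCm38.p6) by symbol, matching 66.6% of the tested genes. Some genes and 1 motif are not reported here.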

Additional observations from a re-analysis of the deposited data

How the results depend on the processing

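Scaling by library size alone gave 7803 genes up and 1178 down. A test against the fold threshold itself (glmTreat) gave 3208 up and 2019 down, no fold threshold gave 5356 and 5040, and a log2 threshold of 1 gave 3061 and 1236. Leaving out single libraries gave 3813 to 4130 up and 2778 to 3069 down, DESeq2 4344 and 3173, and limma voom 4209 and 3089, with no gene called in opposite directions under these settings. Under voom 8 named genes lost their call, the 5 adrenal markers and *Akr1cl*, *Kcnk9* and *Chgb*. Without the mitochondrially encoded genes, the 10, 50 and 100 most abundant genes took 10.04, 18.43 and 23.79% of counts in WTK and 5.832, 11.91 and 16.28% in IgGK. The median of the renin, angiotensin and erythropoietin list turned from -0.63 to 0.1268 with no filter on low counts, and the cause was not tested. The replicate block gave 4208 up and 3027 down. The numbers do not pair these samples, since the deviations of same-numbered WTK and IgGK libraries correlated at 0.0381, -0.00493 and -0.00484. Among the named genes, 4414 values kept their side of the threshold, 88 lost it and 47 gained it. DESeq2 gave *Chgb* no adjusted p, and that value is left out of these counts. Each group holds 3 libraries, and genes near 1 count per library are not resolved.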

Other observations

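Families of genes that share a symbol prefix, formed after the data were seen and given with no test, add groups not described above. Of 12 tested Ms4a genes, which encode membrane proteins of leukocytes, 9 were called up and none down (median log2 fold change 2.74). Of 17 matrix metalloproteinase genes (Mmp) 14 were called up and none down (median 2.66), and of 12 Toll-like receptor genes (Tlr) 11 were called up and 1 down. The calcium-binding S100 genes had 9 of 10 called up, the tubulin beta genes (Tubb) 6 of 8, and the interferon-inducible Ifi genes 26 of 29, with none called down in these 3 families. Of 33 Serpin genes, protease inhibitors for the most part, 19 were called up and 1 down.

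Carriers and mitochondrial ribosome genes went the other way. Of 344 solute carrier genes (Slc) 138 were called down and 64 up (median -0.30). Mitochondrial ribosomal proteins had 20 of 51 (Mrpl) and 13 of 29 (Mrps) called down and none up, and the glucuronosyltransferase genes (Ugt) 10 of 15 down and 2 up. Immunoglobulin variable genes were mostly not called, with 2 of 71 heavy chain genes (Ighv) up and 5 down and 4 of 72 kappa genes (Igkv) up and 6 down. The immunoglobulin constant region genes differed, with 5 of 11 called up and 1 down (median log2 fold change 1.30).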
